A study of Homo sapiens with 4 samples.

Results

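Transcripts of the class IA PI3-kinase subunits and of the SHC and IRS adaptors were examined in MIA PaCa-2 cells, an established human pancreatic carcinoma line, that overexpressed ING3 (2 arrays, a and b), against the same line carrying GFP (2 arrays, a and b). Both populations were made with lentiviral constructs. FLAG-ING3, amplified as the full-length sequence, was carried by pLenti CMV/TO Puro DEST, a puromycin vector with a CMV promoter, and stable clones were selected before RNA was taken at 80% confluence in medium with serum and antibiotic. How many clones each population held is not given in the sources used here. Per the design text, duplicates were technical, so the spread within a group is technical and every difference below compares 1 population with 1 other. In such bulk RNA, fewer cells that express a gene and less of its RNA per cell cannot be told apart.

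The family was defined by gene symbol, and 10 genes were listed: the regulatory subunits PIK3R1, PIK3R2 and PIK3R3, the catalytic subunits PIK3CA, PIK3CB and PIK3CD, the adaptors SHC1 and SHC3, and the docking proteins IRS1 and IRS2. It was selected on the same ING3-against-control differences that are described here, because SHC3 and PIK3R3 had already stood out among the genes that were lower in ING3 cells; their differences are therefore a description, and no p-value is given for them. Probe sets that named a single member were found for 8 of the 10 genes, out of 19775 genes with such a probe set on the array, and PIK3R2 and PIK3CA were not analysed here. The 8 genes had 19 probe sets. Each gene is represented by its brightest probe set, with the others beside it.

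Insulin and growth factor receptors phosphorylate tyrosines on themselves and on docking proteins of the IRS family, and the SH2 domains of the PI3-kinase regulatory subunit bind these sites and bring the catalytic subunit to the membrane. The catalytic subunit makes the lipid PIP3, which recruits AKT, and AKT signals on to mTOR. SHC adaptors bind the same receptors and link them through GRB2 and SOS to RAS and ERK. RAS itself is commonly activated by mutation in pancreatic carcinoma.

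The values are linear MAS5 signals, a brightness per probe set with each array scaled to 1 trimmed mean. Log2 differences are ING3 minus control on log2(signal + 1). The added 1 understates changes of very dim probe sets, and only slightly those of the genes tested. The standard error (SE) of these differences comes from limma, fitted across 12190 genes. These are the genes with a mean at or above the probe-set median (a signal near 64.6). Signals of different probe sets are not comparable with each other. All 8 members passed that filter on their brightest probe set.

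ING3 itself, the overexpressed gene, had a signal of 521 and 541 in ING3 cells, against 338 and 373 in control cells, on its brightest probe set (log2 difference 0.58, SE 0.13, limma adjusted p = 0.071). Of its other 3 probe sets, the second brightest was lower on both ING3 arrays (260.5 and 222) than on both control arrays (287 and 261.3). The keratins KRT8, KRT18 and KRT19 were bright on all arrays, while the epithelial markers CDH1 and EPCAM lay under the filter on every array, at 1.92 to 37.9, and the 3 acinar markers measured lay under it too by their means, with sums of 22.5 and 78.3 in ING3 cells, against 98.1 and 124 in control cells. The 6 epithelial markers summed to 45170 and 48251 in ING3 cells, against 40035 and 40165 in control cells, with KRT18 the largest part. KRT19 (5565 and 5374 in ING3 cells, against 3704 and 3929 in control cells) and KRT8 were called higher in ING3 cells. KRT7 was dim and overlapped. The 6 fibroblast markers, 4 of them past the filter, summed to 5385 and 5754 in ING3 cells, against 6479 and 6261 in control cells. Most of this sum was COL1A2, so it describes mainly that gene. COL1A2 (log2 difference -0.25) and COL1A1 (-0.45) were lower on both ING3 arrays. COL3A1, DCN and PDGFRB overlapped. LUM, under the filter, was higher on both ING3 arrays, at 48.6 and 28.5, against 7.30 and 5.10 in control cells. None of the fibroblast markers was called. The 4 mesenchymal markers summed to 28295 and 31032 in ING3 cells, against 31191 and 29241 in control cells. Most of this sum was VIM, which overlapped, so it says little about the others. ZEB1 (log2 difference 0.21) was higher on both ING3 arrays and not called. CDH2 and FN1, both under the filter, were also higher on both. CDH2 read 35.6 and 32.1 in ING3 cells, against 11.5 and 7.68 in control cells, and FN1 90.2 and 55.6, against 16.9 and 43.9. The 7 leukocyte and endothelial markers measured summed to 638 to 734 in ING3 cells and 552 to 814 in control cells. The part of these marker differences in the members' values was not tested. The 3'/5' ratio of ACTB, which tracks RNA integrity, was 2.05 and 2.03 on the ING3 arrays and 2.58 and 1.80 on the control arrays, so the ING3 values lay inside the control range.

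Among the 8 members, PIK3R3 was 1.62-fold and SHC3 1.63-fold lower in ING3 cells, PIK3CB and PIK3CD were slightly lower, IRS1 and IRS2 were slightly higher, and PIK3R1 and SHC1 overlapped between the groups. The fit across all genes called 2 members lower (PIK3R3 and SHC3) and 0 higher, at a Benjamini-Hochberg adjusted p under 0.05; over all tested genes it called 0.476% lower and 1.03% higher. Because these calls led to the choice of the family, nothing is read from that count. The other 6 were not called, with limma adjusted p-values between 0.080 and 0.96. The groups did not overlap for 6 of the 8 members, with 4 lower and 2 higher, and for 49.2% of all tested genes; since PIK3R3 and SHC3 were picked for their separation, nothing is read from that count either. Among the other 6 members the groups did not overlap for 4, with 2 lower and 2 higher. The median log2 difference of these 6 was 0.024, against -0.0074 over all tested genes, and their median absolute difference was 0.16, against 0.13.

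**Figure D1:**
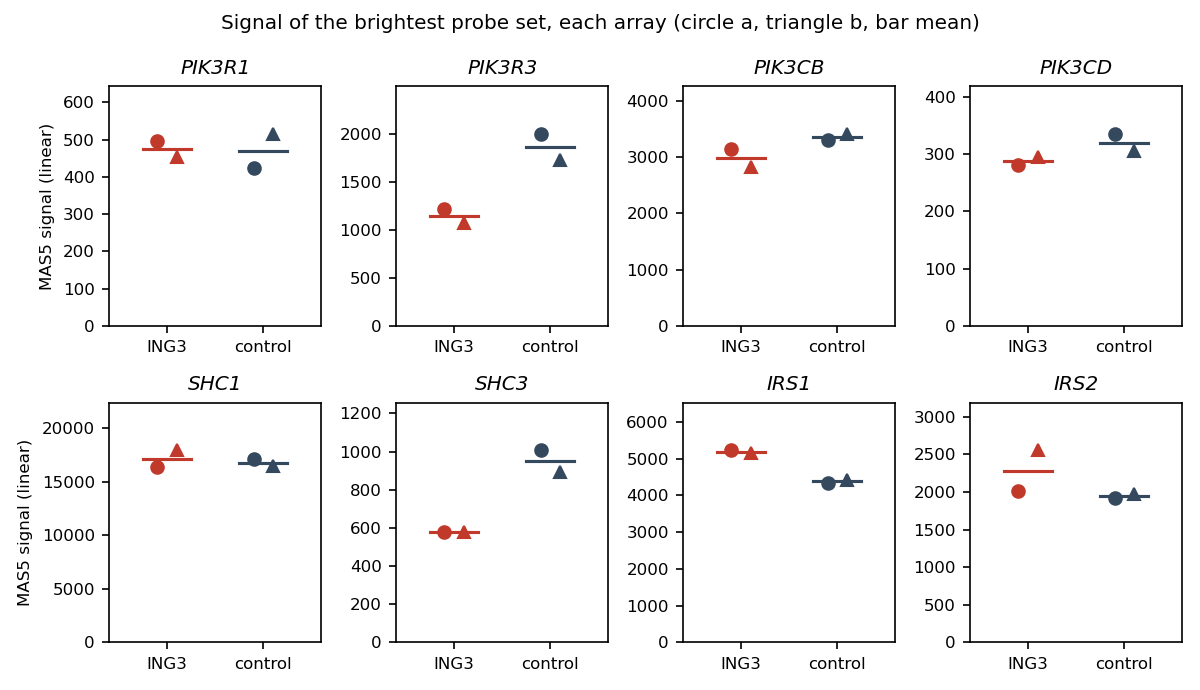
Linear MAS5 signal of the brightest probe set of each of the 8 members on every array, with ING3 cells on the left and control cells on the right of each panel; circles are arrays a, triangles arrays b and bars group means, and each vertical axis starts at 0. The ING3 arrays lie below the control arrays for PIK3R3 and SHC3 with a wide gap, and the groups overlap for PIK3R1 and SHC1.

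PIK3R3 encodes p55-gamma, a short regulatory subunit that keeps the SH2 domains of p85 but lacks its N-terminal SH3 and BH domains. Its brightest probe set read 1217 and 1075 in ING3 cells, against 1995 and 1723 in control cells (1146 ± 101 and 1859 ± 193, SD, n = 2 each). Both ING3 arrays lay well below both control arrays, and the difference between the groups was larger than that between either pair of duplicates. The log2 difference was -0.70 (SE 0.10), 1.62-fold lower, and the 4 single pairs of an ING3 and a control array gave -0.89 to -0.50. The duplicates differed by 0.18 in ING3 cells and by 0.21 in control cells on the same scale, array a being the brighter in each. The dimmer PIK3R3 probe set read 120 and 101 in ING3 cells, against 138 and 141 in control cells. It was also lower on both ING3 arrays, by a smaller log2 difference of -0.34. By size, PIK3R3 ranked 169 from the lowest of the 12190 log2 differences.

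PIK3R1, which encodes p85-alpha and its short forms and is the main regulatory subunit in most tissues, read 496 and 452 in ING3 cells, against 424 and 515 in control cells. The groups overlapped, and the log2 difference was 0.020 (SE 0.14), a value whose sign depends on which array is included. Its second probe set, at 77.5 and 53.9 in ING3 cells and 84.1 and 73.1 in control cells, overlapped as well (log2 difference -0.27), and its dimmest was under the filter, between 2.71 and 21.1 on the 4 arrays. 

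SHC3 encodes an SHC adaptor that is known mainly from neurons, where it couples neurotrophin receptors to RAS and PI3-kinase signalling. Its brightest probe set read 579.7 and 580.5 in ING3 cells, against 1006 and 894 in control cells (580.1 ± 0.614 and 950.0 ± 78.8, SD, n = 2 each). The ING3 duplicates were nearly identical and both lay below the controls. The log2 difference was -0.71 (SE 0.11), 1.63-fold lower, with -0.79 to -0.62 over the 4 single pairs, and it ranked 153 from the lowest. The other SHC3 probe sets were dim and did not separate the groups. The second read 70.1 and 102 in ING3 cells, against 82.6 and 203 in control cells, so that ING3 array b lay between the controls (log2 difference -0.61). The third, under the filter, read 52.7 and 68.9 in ING3 cells, against 91.8 and 41.7 in control cells, with a log2 difference of -0.039.

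SHC1, the widely expressed SHC gene and the source of the p46, p52 and p66 proteins, read 16358 and 17932 in ING3 cells, against 17161 and 16450 in control cells. The groups overlapped and the log2 difference was 0.028 (SE 0.061). Its dimmer probe set varied more between the control duplicates (151 and 396) than between the groups, with 226 and 270 in ING3 cells. SHC2 and SHC4, the remaining SHC genes, were no members; SHC2 read 344 and 246 in ING3 cells, against 287 and 261 in control cells, with overlapping groups, and SHC4 lay under the filter at 23.2 and 46.2 in ING3 cells, against 15.3 and 24.7 in control cells.

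**Figure D2:**
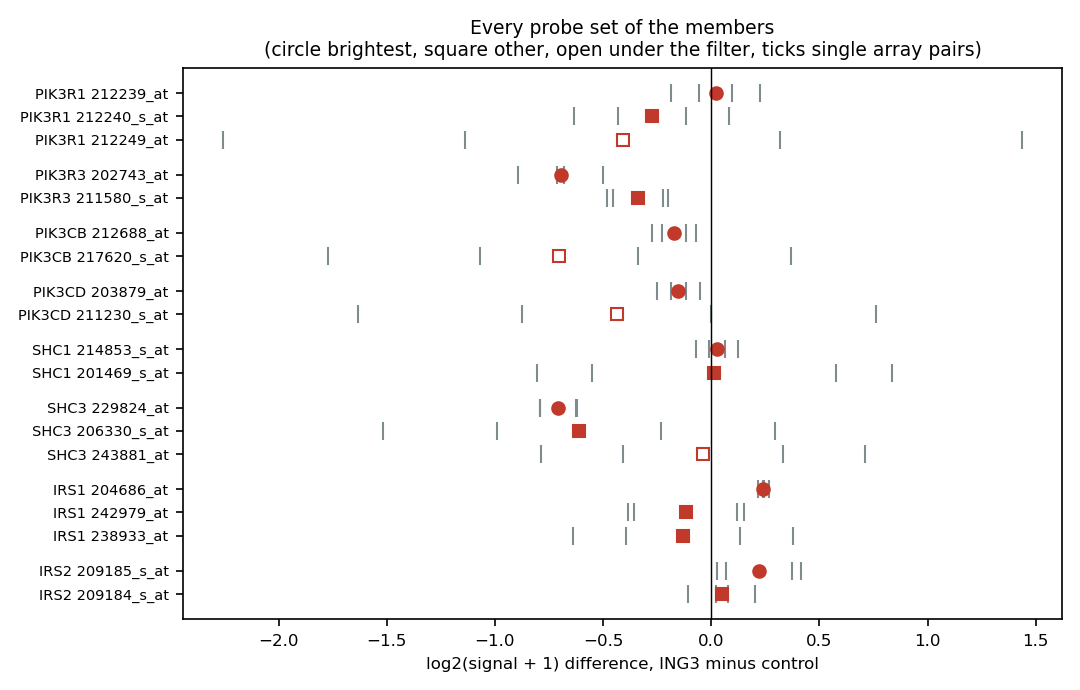
Log2 difference, ING3 minus control, of all 19 probe sets of the 8 members; circles are the brightest probe set of a gene, squares the others, open symbols those under the filter, and grey ticks the 4 single differences between an ING3 and a control array. For PIK3R3 the 4 ticks of both probe sets lie below 0, for SHC3 those of the brightest alone do, and for IRS1 the brightest and the other probe sets lie on opposite sides of 0.

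The sequences upstream of the SHC and regulatory subunit genes are shown because each pair holds a gene that was lower and a relative whose groups overlapped. Each is the 250 bases before the outermost start that RefSeq lists for the gene on GRCh38.p14, read 5′ to 3′ on the gene's strand, with capitals for matches to the motifs searched. PIK3R3 has 6 listed starts and PIK3R1 has 4, and these windows show the outermost alone; which start MIA PaCa-2 cells use was not measured.
SHC3, chr9:89178819-89179068, minus strand: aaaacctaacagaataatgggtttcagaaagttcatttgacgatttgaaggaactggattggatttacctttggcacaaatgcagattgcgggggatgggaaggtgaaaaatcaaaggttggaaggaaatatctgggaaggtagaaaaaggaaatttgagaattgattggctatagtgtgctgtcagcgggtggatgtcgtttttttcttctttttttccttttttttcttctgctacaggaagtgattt
SHC1, chr1:154974377-154974626, minus strand: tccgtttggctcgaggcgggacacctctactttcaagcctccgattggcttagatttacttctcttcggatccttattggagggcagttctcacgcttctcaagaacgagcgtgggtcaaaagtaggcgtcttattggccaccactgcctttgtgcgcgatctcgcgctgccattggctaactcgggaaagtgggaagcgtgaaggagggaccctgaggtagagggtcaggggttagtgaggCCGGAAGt
PIK3R3, chr1:46174902-46175151, minus strand: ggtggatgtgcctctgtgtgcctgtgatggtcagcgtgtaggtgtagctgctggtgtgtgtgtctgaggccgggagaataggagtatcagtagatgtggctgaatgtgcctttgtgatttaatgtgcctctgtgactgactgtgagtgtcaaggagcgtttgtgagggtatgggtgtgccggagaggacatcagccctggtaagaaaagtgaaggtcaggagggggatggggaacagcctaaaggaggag
PIK3R1, chr5:68215506-68215755, plus strand: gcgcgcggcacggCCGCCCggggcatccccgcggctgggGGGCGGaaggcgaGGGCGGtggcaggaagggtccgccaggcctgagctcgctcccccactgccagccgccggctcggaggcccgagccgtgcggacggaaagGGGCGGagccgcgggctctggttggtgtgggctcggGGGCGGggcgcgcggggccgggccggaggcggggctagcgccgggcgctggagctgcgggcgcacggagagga

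The following 6 motifs were searched on both strands: the FOXO motif TGTTTAC, the E-box CACGTG, the ETS motif CCGGAAG, the CRE TGACGTCA, the AP-1 motif TGACTCA and the GC box GGGCGG, bound by SP1. No motif contains another. In the same window of 27305 genes they occurred in 3.01%, 6.46%, 8.78%, 1.75%, 4.15% and 42.2%, in that order. The SHC3 and PIK3R3 windows held none of them, the SHC1 window held 1 ETS match at position -8 and the PIK3R1 window held 5 GC boxes. These matches describe the letters only. The windows also differed in composition: SHC3 and PIK3R3 each had 4 CpG dinucleotides, against 16 in SHC1 and 37 in PIK3R1, and 27 to 42 in the windows of PIK3CB, IRS1 and IRS2. PIK3CD is left out, because the outermost of its listed starts lies inside the RefSeq gene. The median over all windows was 10. GC content was 38.0% for SHC3 and 53.6% for PIK3R3, against 55.2% for SHC1 and 81.6% for PIK3R1, with a median of 57.6% over all windows. The CpG counts were compared after the expression values were known, so they describe these 7 genes only.

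The catalytic subunits measured were both slightly lower in ING3 cells. PIK3CB encodes p110-beta, which also answers to G protein-coupled receptors, and read 3147 and 2819 in ING3 cells, against 3306 and 3411 in control cells. The groups did not overlap, but the gap was small: the log2 difference was -0.17 (SE 0.073, limma adjusted p = 0.26). PIK3CD encodes p110-delta, the subunit best known from leukocytes, and read 281 and 294 in ING3 cells, against 335 and 305 in control cells (log2 difference -0.15, SE 0.16, limma adjusted p = 0.67). Each gene had 1 further probe set, under the filter, on which the groups overlapped, with 20.2 and 56.4 in ING3 cells and 43.5 and 71.5 in control cells for PIK3CB, and with 47.1 and 27.4 in ING3 cells and 27.4 and 87.2 in control cells for PIK3CD. Neither subunit was called.

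The IRS docking proteins had higher means in ING3 cells on their brightest probe sets. IRS1, the main insulin receptor substrate of many cell types, read 5225 and 5152 in ING3 cells, against 4349 and 4430 in control cells (5189 ± 51.7 and 4390 ± 57.6, SD, n = 2 each). The duplicates lay close together and the groups apart, with a log2 difference of 0.24 (SE 0.059), 1.18-fold, and a limma adjusted p of 0.080. The other IRS1 probe sets did not share the direction. The second read 1733 and 1220 in ING3 cells, against 1562 and 1595 in control cells, and the third read 262 and 311 in ING3 cells, against 239 and 409 in control cells; both overlapped, with log2 differences of -0.12 and -0.13. The IRS1 difference therefore rests on 1 of 3 probe sets, and with the probe sets averaged it was -0.0026.

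IRS2, which is known to be induced by FOXO factors when insulin signalling is low, read 2011 and 2551 in ING3 cells, against 1915 and 1972 in control cells. Both ING3 arrays lay above both control arrays, but ING3 array a stood only just above them. The log2 difference was 0.22 (SE 0.11, limma adjusted p = 0.32). The second IRS2 probe set overlapped between the groups, at 634 and 581 in ING3 cells, against 625 and 551 in control cells (log2 difference 0.049). IRS2 was called once in the alternatives, without ING3 array a, at a log2 difference of 0.39 (limma adjusted p = 0.039, within a range of 0.039 to 0.83 over the alternatives).

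Of the 15 member probe sets past the filter, 7 stood beside a brightest one, and 4 of these 7 had its sign: the second probe sets of PIK3R3, SHC3, SHC1 and IRS2. The 3 that did not belonged to PIK3R1 and IRS1.

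The other genes of the pathway were drawn from 8 lists of receptors, adaptors, enzymes and targets. Of 139 listed genes 122 had a probe set and 99 were tested. At a limma adjusted p under 0.05, 2 rose, 1 fell and 96 did not pass. Over all tested genes the fit called 1.03% higher and 0.476% lower. The lists were chosen with earlier results of these data known, so nothing is read from the number of pathway genes called. An unadjusted p under 0.05 was found for 17 pathway genes. That is 17.2% of the 99, against 17.7% of all tested genes, and the unadjusted counts of the single lists below are to be read against the same 17.7%. The median log2 difference of the 99 genes was 0.0096, and the groups did not overlap for 45 of them, against the 49.2% given above for all tested genes. Where a gene had several probe sets, values below are of the brightest unless stated. Of the pathway genes named, 15 had 36 further probe sets past the filter. Of these probe sets, 22 had the sign of the brightest and 14 did not. Both ING3 arrays were lower for 15 and higher for 4, and 17 overlapped. The matching shares over all further probe sets were not computed, so nothing is read from these counts. The median signal over all probe sets was 66.9 and 64.8 on the ING3 arrays, against 76.0 and 69.4 on the control arrays.

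MTOR, the kinase at the centre of both mTOR complexes, was the gene that fell. Its brightest probe set read 330.0 and 382 in ING3 cells, against 698 and 589 in control cells. Both ING3 arrays lay far below the controls, with a log2 difference of -0.85 (SE 0.14, limma adjusted p = 0.027), 1.80-fold lower. Its other probe set lay under the filter, between 8.50 and 44.4 on the 4 arrays, and overlapped. The call was lost under 7 of 13 alternatives, among them leaving out control array a (log2 difference -0.73) or control array b (-0.97), and the mean was lower in all 13. With the probe sets of a gene averaged the log2 difference was -0.23 (limma adjusted p = 0.85, within a range of 0.0060 to 0.85 over the alternatives), so its size rests on the brightest probe set. The remaining 24 tested genes of the AKT, mTOR and effector list did not pass, and the list's median was -0.020. Of its 25 tested genes 3 (12%), MTOR among them, had an unadjusted p under 0.05. AKT1 read 667 and 593 in ING3 cells, against 732 and 704 in control cells (log2 difference -0.19, SE 0.11). AKT2 overlapped (-0.020, SE 0.087), as did RICTOR, a subunit of the second mTOR complex (0.078, SE 0.096). PDPK1, the kinase that activates AKT, read 1573 and 1680 in ING3 cells, against 1730 and 1849 in control cells (-0.14, SE 0.080). The transcription factors FOXO1 and FOXO3, which AKT keeps out of the nucleus, differed by -0.072 (SE 0.19) and by -0.096 (SE 0.072). Some dimmer probe sets past the filter were lower on both ING3 arrays: FOXO1 (-0.51), FOXO3 (-0.38 and -0.21), AKT2 (-0.25) and PDPK1 (-0.27). Others overlapped: FOXO3 (-0.15), AKT2 (0.11) and PDPK1 (0.18 and 0.034).

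**Figure D3:**
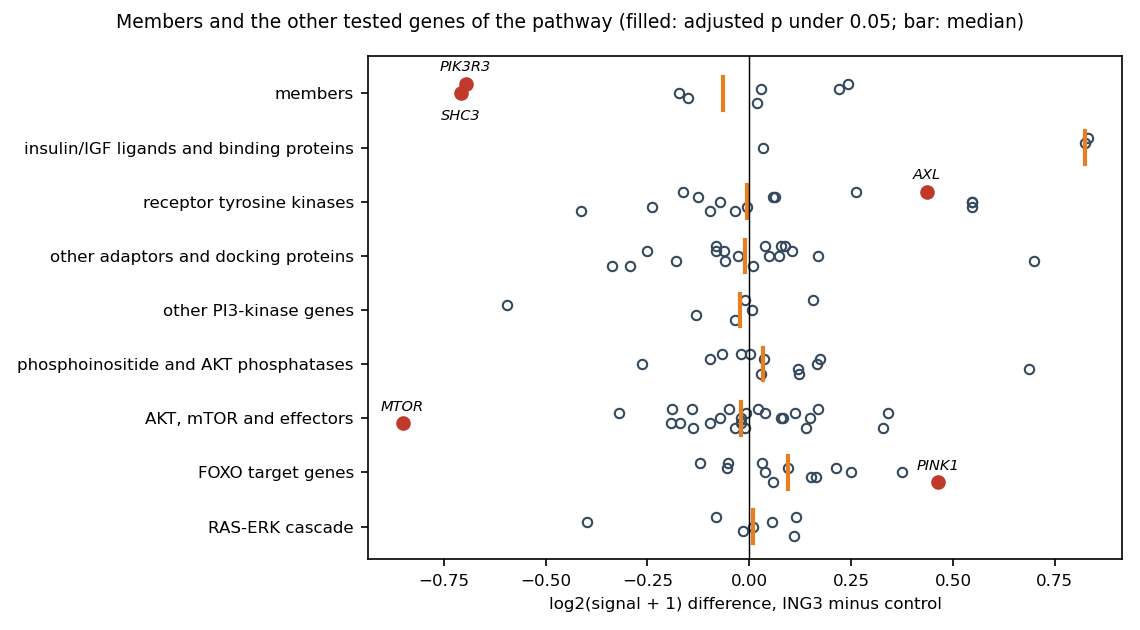
Log2 difference, ING3 minus control, of the 8 members and of the 99 other tested pathway genes by list; filled points were called by limma over all genes at an adjusted p under 0.05, open points were not, and orange bars are list medians. MTOR stands at -0.85, beyond PIK3R3 and SHC3, and every list other than that of the 3 insulin/IGF genes has its median between -0.066 and 0.095.

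Upstream of the members, 1 of 15 tested receptor tyrosine kinases, AXL, rose and 0 fell. An unadjusted p under 0.05 was found for 4 of the 15 (26.7%), AXL among them. AXL read 5780 and 6214 in ING3 cells, against 4044 and 4853 in control cells (log2 difference 0.44, SE 0.087, limma adjusted p = 0.047). The size is uncertain, since its second probe set, dimmer, gave 2.41. AXL was called in 4 of 13 alternatives. The call was lost without control array a (log2 difference 0.30), control array b (0.57) or ING3 array b (0.38), with no filter (0.44), after quantile normalization (0.39) and cyclic loess (0.40), without an intensity trend (0.44), with probe sets averaged (1.42) and with each probe set tested on its own (0.44). The receptors that phosphorylate IRS proteins did not pass. INSR, the insulin receptor, read 920.4 and 936 in ING3 cells, against 898 and 1201 in control cells (-0.16, SE 0.13), and IGF1R, its relative, read 1444 and 1323 in ING3 cells, against 1332 and 1506 in control cells (-0.036, SE 0.093). Among the dimmer INSR probe sets past the filter, those with log2 differences of -0.20 and -0.26 were lower on both ING3 arrays. Those with -0.19 and -0.034 overlapped. The second IGF1R probe set was higher on both ING3 arrays, at 1078 and 1015, than on the control arrays, at 814 and 668. EGFR, ERBB2 and ERBB3, receptors of the EGF family, had log2 differences of -0.072, -0.24 and -0.41 (SE 0.078, 0.095 and 0.21). The EGFR probe sets disagreed: the second was higher on both ING3 arrays (0.40), the third was lower on both (-0.33) and the brightest overlapped. ERBB3 carries docking sites for the PI3-kinase regulatory subunit. The median of the 15 receptors was -0.0050.

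None of 18 other adaptors and docking proteins was called by limma, with 3 at an unadjusted p under 0.05 and a median of -0.0094. GRB2, which joins SHC to SOS, read 2541 and 2594 in ING3 cells, against 2502 and 2462 in control cells (log2 difference 0.049, SE 0.067), SOS1, the RAS exchange factor, overlapped (-0.063, SE 0.13), and GAB1, a docking protein that binds the regulatory subunit, read 173 and 198 in ING3 cells, against 245 and 224 in control cells (-0.34, SE 0.20). The other 4 GAB1 probe sets past the filter had log2 differences of 0.12, 0.085, -0.33 and -0.53, of which only the last separated the groups. Of 6 tested genes of other PI3-kinase classes and modulators 0 were called by limma and 0 had an unadjusted p under 0.05. PIK3C3, the class III kinase of autophagy, and its partner PIK3R4 differed by 0.0062 (SE 0.063) and by -0.035 (SE 0.077) on the log2 scale. The brightest PIK3C3 probe set overlapped between the groups, but 3 further ones past the filter were lower on both ING3 arrays, with log2 differences of -0.50, -0.40 and -0.59. The second of these read 280.0 and 280.6 in ING3 cells, against 369.7 and 370.4 in control cells. PIK3IP1, an inhibitor of the catalytic subunit, had -0.13 (SE 0.34) on a dim probe set. Of 12 phosphoinositide and AKT phosphatases 0 were called by limma, with 1 at an unadjusted p under 0.05, and INPPL1, which removes a phosphate from PIP3, had 0.12 (SE 0.11). The RAS-ERK list had 7 tested genes, of which 0 were called and 1 had an unadjusted p under 0.05.

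Of 13 tested FOXO target genes, PINK1, a mitochondrial kinase, rose and 12 did not pass; 3 of the 13, PINK1 among them, had an unadjusted p under 0.05. PINK1 read 1635 and 1551 in ING3 cells, against 1095 and 1220 in control cells (log2 difference 0.46, SE 0.089, limma adjusted p = 0.042), and its second probe set was also higher on both ING3 arrays (0.21). PINK1 was called in 4 of 13 alternatives, and leaving out any 1 of the 4 arrays ended the call, with log2 differences of 0.38 to 0.54. The list had 10 genes with a higher mean and 3 with a lower one, with a median of 0.095. Over all 12190 tested genes 5891 had a higher mean and 6299 a lower one, with a median of -0.0074. The list was chosen with earlier results of these data known, so nothing is read from its count of directions. Of the 3 tested insulin/IGF genes, all binding proteins, 0 were called and 2 had an unadjusted p under 0.05: IGFBP2, at 244 and 245 in ING3 cells, against 155 and 121 in control cells (0.83, SE 0.22, limma adjusted p = 0.10), and IGFBP4, at 154 and 152 in ING3 cells, against 114 and 64.4 in control cells. These 2 genes were named after their values were seen. IGFBP6 overlapped between the groups (0.034, SE 0.056).

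Across the 13 alternatives the log2 difference lay between -0.80 and -0.52 for PIK3R3 and between -0.79 and -0.45 for SHC3. These are the values that chose the family, so their calls under the alternatives support nothing, and only the losses are named in this paragraph. Where counts of called members or filled points appear elsewhere, they are a description. Neither gene was called without control array a (log2 differences of -0.59 for PIK3R3 and -0.62 for SHC3), without control array b (-0.80 and -0.79), without an intensity trend in the variance model (the same -0.70 and -0.71), or with all probe sets of a gene averaged (-0.52 and -0.45).

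**Figure D4:**
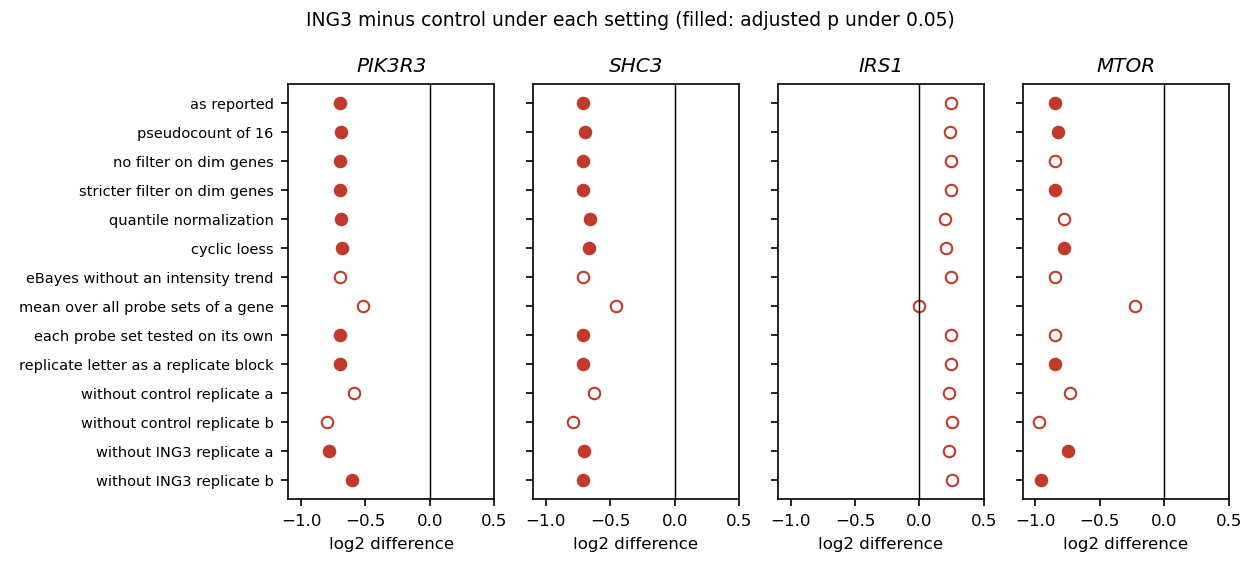
Log2 difference, ING3 minus control, of PIK3R3, SHC3, IRS1 and MTOR under the reported setting and the 13 alternatives; filled points had a limma adjusted p under 0.05 over all genes. For PIK3R3 and SHC3 the filling is a description, since they led to the choice of the family. MTOR lies below 0 throughout but shrinks to -0.23 where its probe sets were averaged, and IRS1 reaches -0.0026 there.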

How the data were processed

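RNA of 4 arrays of MIA PaCa-2 cells, 2 with ING3 and 2 controls by their titles, was labelled with biotin. The authors deposited linear signal intensity values for 54675 probe sets. The submitters' processing notes name Affymetrix Expression Console and MAS5, without versions. The trimmed mean was 500.1 on each array. The number of arrays limits the precision.

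GEO's platform annotation gave 41097 probe sets 1 symbol and 1801 several; looking symbols up by gene ID in RefSeq GRCh38.p14 changed 0. The 62 control probe sets were left out. Each gene's brightest probe set was tested on log2(signal + 1) with limma 3.58.1 in R 4.3.3 (lmFit, eBayes with an intensity trend, two-sided, Benjamini-Hochberg over 12190 genes, 2 residual and 7.35 prior degrees of freedom), after a check on simulated data. p-values measure technical spread. The members, lists and tests were chosen with earlier results of these data known. The genes named were the members, ING3, the called genes of each list and a fixed set of core pathway genes; marker genes describe the cells. The letters a and b do not pair the arrays: the correlation of deviations of same-lettered arrays was 0.029. Alternatives changed the pseudocount, filter, normalization, variance model, probe set choice and arrays.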

Additional observations from a re-analysis of the deposited data

How the results depend on the processing

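Over all genes limma called 183. The count was 54 with no filter on dim genes, 119 after quantile normalization, 0 without an intensity trend (1686 at an unadjusted p under 0.05), 37 with probe sets averaged, 76 with each probe set tested on its own, and 2 to 305 when 1 array was left out, with 2 without control array a and 2 without control array b. The members called were 2; they were 0 without an intensity trend (3 at an unadjusted p under 0.05) and 0 with probe sets averaged (1 at an unadjusted p under 0.05), and 0 to 3 when 1 array was left out, with 0 without either control array. Of the pathway lists 3 genes were called, and 0 with no filter, after quantile normalization, without an intensity trend, with probe sets averaged and with each probe set on its own (16, 17, 14, 11 and 17 at an unadjusted p under 0.05, in that order), and 0 to 5 when 1 array was left out. With the letter as a replicate block, which does not rest on a known pairing, 442 genes, 2 members and 6 pathway genes were called, and 59.5% of the called genes were higher, against 68.3% without it. With 2 arrays in a group, leaving 1 out assumes that the lone array varies like the others.

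Among members that were not called, the sign turned for PIK3R1 with probe sets averaged (-0.22), without control array a (-0.12) and without ING3 array a (-0.046), with a range of -0.12 to 0.16 when 1 array was left out, for SHC1 after quantile normalization (-0.034) and cyclic loess (-0.053), without control array b (-0.0029) and without ING3 array b (-0.039; -0.039 to 0.094 when 1 array was left out), and for IRS1 with probe sets averaged (-0.0026). The causes were not tested. No detection calls were used, so how far dim probe sets stood above background is not known.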
